A study of Mus musculus with 54 samples.

Results

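Myc and 42 genes of ribosome biogenesis were followed across cultured and sorted mouse group 2 innate lymphoid cells (ILC2s). The 43 genes were chosen by name: Myc, nucleolar scaffold proteins, small nucleolar ribonucleoproteins, RNA polymerase I subunits, and factors that process ribosomal RNA and build the small and large subunits. All 43 were listed in both deposited tables, out of 10799 genes in the culture table and 10176 in the table of nILC2 and iILC2. All 43 also reached 1 TPM in 4 or more libraries of each table, the condition for testing, which 10548 and 10069 genes met.

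The cells were ILC2s from small intestine of C57BL/6 mice aged 8 to 12 weeks, with sex labelled as pooled. In the culture table, 24 libraries of genotype WT formed 6 groups of 4: cells were kept for 4, 48 or 72 h in IL-2 and IL-7, either alone or together with IL-25, a cytokine made by epithelial tuft cells to which ILC2s respond. The other table held 16 libraries of cells labelled primary, in 4 groups of 4: nILC2 CTRL (genotype WT), nILC2 KO, iILC2 CTRL (genotype WT) and iILC2 KO. All 16 were labelled with IL-25 and 48 h, so no group of that table lacked IL-25. The series text gives the genotypes as Rxrg+/+ and Rxrg-/-, for the gene of retinoid X receptor gamma, and no Cre line is named in the labels. What the prefixes n and i stand for is not written out there. The name under which these libraries were deposited writes cKO where the labels write KO. Whether the knockout was conditional is therefore not settled here.

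RNA was measured by Smart-seq2, a full-length method for few cells, as TPM, a length-corrected share of transcripts. TPM does not preserve read totals, and the depth is therefore unknown. The targeted gene Rxrg was listed at 12.2 to 18.4 TPM in nILC2 CTRL and at 1.27 to 3.12 TPM in nILC2 KO. In iILC2 it was at 1.26 to 1.83 TPM in CTRL and at 0 to 0.48 TPM in KO. All 12 ILC2 markers examined (among them Gata3, Il7r, Il17rb and Klrg1) were listed in both tables. Each table listed 2 of 10 T cell markers (Cd3e and Cd3g in the culture table, Cd3g and Cd5 in the other), 1 of 6 B cell markers (Cd79b) and 2 of 8 epithelial and stromal markers (Epcam and Pecam1), and the others were not analysed here. In the table of nILC2 and iILC2, the summed TPM of 4 Y-linked genes was 0 to 0.59 in number 2 of both CTRL groups and numbers 1 and 2 of both KO groups, and 93.4 to 142 in the others, so the split was unequal between CTRL and KO. The labels do not say that libraries came from separate cultures or animals, so the p-values measure the spread between these libraries alone. In bulk RNA, fewer cells of a type and less RNA per cell cannot be told apart.

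Ribosomes are assembled in the nucleolus, where RNA polymerase I transcribes the precursor of ribosomal RNA. Box C/D and box H/ACA ribonucleoproteins guide its methylation and pseudouridylation, the small subunit processome folds and cuts its 5' part, and separate factors mature the large subunit. Myc, a transcription factor that binds E-box sequences with its partner Max, is known to raise transcription of many of these genes, and growing lymphocytes need the pathway before they divide.

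Because the genes were followed as a group around Myc, the start sites were searched for the E-box that Myc and Max bind. Start-site windows (250 bases before to 50 after the start) from RefSeq, build GRCm38.p6, were matched for 37 of the 43 genes; Myc, Npm1, Fbl, Rrp12, Bop1 and Rrs1 had no entry. The E-box CACGTG, which reads the same on both strands, stood in 10 of the 37 windows: those of Imp4, Ltv1, Mybbp1a, Nop2, Pes1, Tsr1, Utp18, Utp20, Utp4 and Wdr43. It stood in 8.09% of the windows of all 27025 genes and in 12.1% of those of 8698 genes of the culture table. The E-box variant CACGCG, searched on both strands, was in 29.7% of the 37 windows against 20.6% over the culture table. The motif of ETS factors, CCGGAAGT, also searched on both strands, was in 21.6% against 10.2%. A match is a description of letters, not of binding. The sequences below show the upstream matches to CACGTG and, for comparison, matches to the ETS motif, each 5' to 3' on the gene's strand with the matched letters in capitals:
Imp4 (chr1:34439690-34439731, plus strand): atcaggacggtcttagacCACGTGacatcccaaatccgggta
Nop2 (chr6:125131805-125131846, plus strand): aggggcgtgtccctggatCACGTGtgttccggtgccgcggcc
Utp18 (chr11:93885767-93885804, minus strand): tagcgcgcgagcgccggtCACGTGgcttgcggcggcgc
Ltv1 (chr10:13193212-13193253, minus strand): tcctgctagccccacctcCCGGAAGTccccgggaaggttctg
Gar1 (chr3:129831417-129831458, minus strand): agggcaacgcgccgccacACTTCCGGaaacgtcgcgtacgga
Heatr1 (chr13:12395341-12395374, plus strand): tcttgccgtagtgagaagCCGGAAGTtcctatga
In the other 7 genes with CACGTG the match lay within the first 50 bases after the start. For IL-25 at 4 h the median log2 fold change was 0.71 over the 10 genes with CACGTG (0.48 to 1.00) and 0.67 over the 27 without (0.25 to 1.01). In iILC2 against nILC2 it was -0.32 with and -0.49 without in CTRL, and -0.49 and -0.65 in KO, as a description with no test.

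By level, Npm1, the histone chaperone nucleophosmin, stood far above the others, with 2310 ± 84.4 TPM (SD, n = 4) at 4 h without IL-25 and 2504 ± 140 TPM in nILC2 CTRL. Ncl (nucleolin) followed with 771 ± 49.4 and 336 ± 22.3 TPM, and then the box C/D core proteins Nop58 and Nop56 and the box H/ACA protein Nhp2. The lowest were Utp18, Noc3l and Utp20, at 7.54, 10.3 and 19.5 TPM at 4 h without IL-25. Together the 43 genes held 1.58% ± 0.0208 of the listed TPM at 4 h with IL-25 and 0.96% ± 0.0424 at 4 h without. The share was 0.811% ± 0.0312 at 48 h with IL-25 and 0.424% ± 0.017 without, and 0.415% ± 0.00707 and 0.382% ± 0.0194 at 72 h. All 43 had their highest culture mean at 4 h with IL-25. The lowest was at 72 h without IL-25 for 30 genes, at 72 h with IL-25 for 11, and at 48 h without IL-25 for Wdr43 and Imp4.

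**Figure D1:**
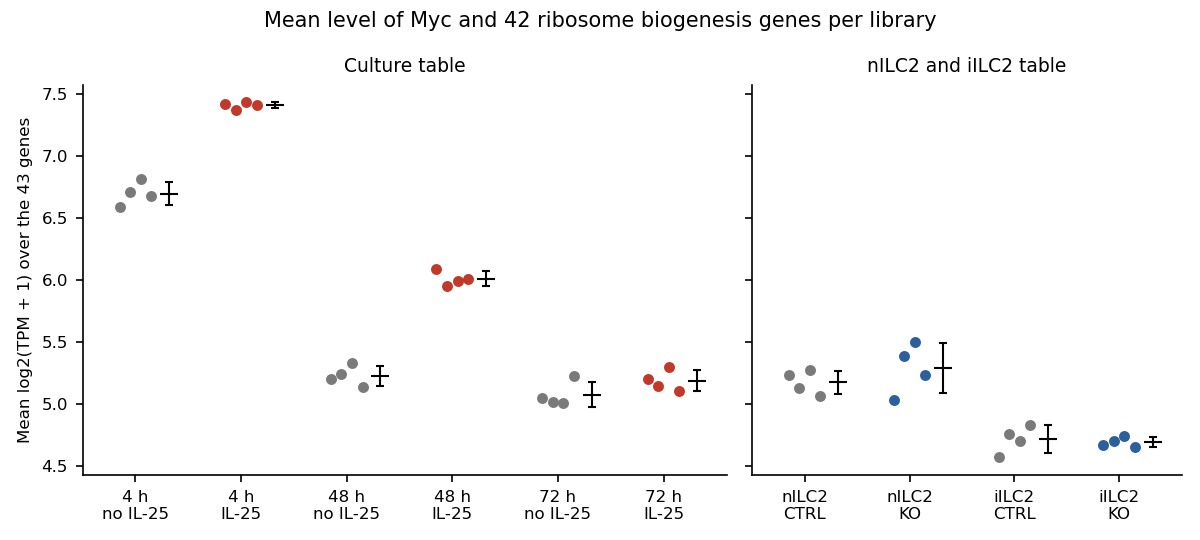
Mean log2(TPM + 1) over the 43 genes (vertical axis) in each library (points) by group; bars give the mean and SD of 4 libraries, grey is without IL-25 or CTRL, red with IL-25, blue KO. The mean was 7.41 at 4 h with IL-25, 6.01 at 48 h with IL-25 and 5.19 at 72 h with IL-25; the panels come from tables normalized separately, so levels are compared within a panel.

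With IL-25 at 4 h, nearly the whole set was higher: 42 of the 43 genes were called higher and 0 lower, at an adjusted p under 0.05 by limma over all genes. Of all genes tested, 13.4% were higher and 26.9% lower by the same rule. The median log2 fold change was 0.69 over the 43 genes and -0.12 over all genes. Rescaling by the median of ratios turned the split of all genes to 2233 higher and 2103 lower, in place of 1415 and 2835, and their median to 0.003. Every library with IL-25 exceeded every library without for 39 genes, which held for 13.0% of all genes. On the TPM scale the rise ran from 1.19-fold for Nop10 to 2.19-fold for Myc, with a median of 1.61-fold.

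Myc was at 278, 278, 267 and 276 TPM without IL-25 and at 599.61, 590.29, 570.35 and 639 TPM with it at 4 h. The groups lay far apart against the spread within them (log2 fold change 1.12, SE 0.08, adjusted p = 8.8e-11). Among nucleolar scaffold proteins, Nolc1, which carries snoRNPs to the nucleolus, rose from 154 ± 6.67 to 284 ± 3.50 TPM, and Npm1 from 2310 ± 84.4 to 3880 ± 24.9 TPM. All 4 box C/D proteins were called higher, led by Nop58. Its libraries were at 435, 486, 502 and 478 TPM without IL-25 and at 858, 870.37, 941 and 880.08 TPM with it (log2 fold change 0.90, SE 0.07, adjusted p = 1.3e-10). Fbl, the methyltransferase of these particles, was called with an adjusted p = 0.036, but its libraries overlapped, at 165 ± 79.0 against 247 ± 75.7 TPM. That call was lost without number 1 or 2 of either 4 h group (adjusted p 0.091 to 0.21) and under quantile normalization (adjusted p = 0.064).

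The 4 box H/ACA proteins were also called higher at 4 h, with Nop10 changing least in the whole set (289.5 ± 12.8 to 343 ± 14.1 TPM; its call was lost under quantile normalization, adjusted p = 0.14). The RNA polymerase I subunits rose together: Polr1a, the largest subunit, from 30.3 ± 2.91 to 47.1 ± 0.648 TPM, and Polr1b, the second largest, from 69.8 ± 4.54 to 109.4 ± 8.10 TPM. In the small subunit processome 9 of 10 genes were called higher. The exception was Heatr1, at 45.2, 36.3, 34.2 and 40.8 TPM without IL-25 and 58.9, 44.8, 57.9 and 55.7 TPM with it, whose libraries overlapped (log2 fold change 0.46, SE 0.19, adjusted p = 0.051). It was called after rescaling by the median of ratios or by quantile normalization (adjusted p 0.014 and 0.021). Utp20 lost its call without number 4 of the 4 h group without IL-25 (adjusted p = 0.058). All 5 late small subunit factors and all 11 large subunit factors were called higher. The largest log2 fold changes of these were 1.17 (SE 0.24) for Rrs1, which brings the 5S particle into the large subunit, and 1.01 (SE 0.08) for Mrto4, which holds the place of the stalk protein P0. The summed TPM of the 2 listed T cell markers (Cd3e and Cd3g) was 28.9 to 35.3 without IL-25 and 15.9 to 25.5 with it. That of the 12 ILC2 markers was 2734 to 3137 and 4371 to 4524, with Il5 alone going from 360 ± 87.7 to 2034 ± 218 TPM. By gene, 5 of the 12 were called higher and 3 lower (median log2 fold change 0.03), beside 13.4% and 26.9% of all genes. Cd79b fell from 28.4 ± 2.25 to 15.8 ± 2.96 TPM and Epcam from 176 ± 7.06 to 92.1 ± 5.62 TPM, while Pecam1 rose from 36.1 ± 4.29 to 152 ± 6.27 TPM. The part of these markers in the result was not tested.

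At 48 h the set was again higher with IL-25: 39 of 43 genes were called higher and 0 lower, beside 21.4% and 28.7% of all genes. The median log2 fold change was 0.84 against -0.09 over all genes, of which 2770 were higher and 2647 lower after that rescaling in place of 2254 and 3026. The groups did not overlap for 38 genes, with IL-25 above, as for 19.5% of all genes. Mrto4 rose most, from 67.7, 64.8, 63.1 and 60.9 TPM without IL-25 to 194, 156, 182 and 184 TPM with it. Its groups lay 2.79-fold apart (log2 fold change 1.46, SE 0.08, adjusted p = 5.5e-14). Wdr43, a processome scaffold protein, went from 37.0 ± 8.07 to 84.9 ± 16.6 TPM, and Mybbp1a, a nucleolar Myb-binding protein, from 29.1 ± 6.47 to 65.0 ± 8.03 TPM. Myc was at 50.2, 51.1, 57 and 41.5 TPM without IL-25 and at 88.4, 91.6, 101 and 96.9 TPM with it (log2 fold change 0.91, SE 0.08, adjusted p = 1.2e-09).

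The 4 genes not called at 48 h were Polr1a, Utp15, Utp18 and Utp20, with log2 fold changes of 0.12 (SE 0.15), 0.16 (SE 0.13), 0.23 (SE 0.23) and 0.16 (SE 0.24). Utp15 was called under both rescalings (adjusted p 0.040 and 0.012). Polr1a thus stood at 12.6 ± 2.00 TPM without IL-25 and 13.8 ± 2.50 TPM with it, while Polr1b went from 7.25 ± 1.19 to 13.5 ± 3.44 TPM (adjusted p = 0.00096). Some calls rested on single libraries. Fbl and Gar1 lost theirs without number 2 and number 4, respectively, of the group without IL-25 (adjusted p 0.070 and 0.060), and Heatr1 without number 4 of the group with IL-25 (adjusted p = 0.090). Rrp1b lost its call without number 1, 3 or 4 of the group with IL-25 or number 2 of the group without (adjusted p 0.063 to 0.20), and Nop10 under quantile normalization (adjusted p = 0.42). The late small subunit factors were all 5 called higher. Among them Ltv1, an export factor of the pre-40S particle, went from 44.3 ± 5.13 to 81.0 ± 7.39 TPM. Alongside these changes at 48 h, the summed TPM of Cd3e and Cd3g was 82.4 to 129 without IL-25 and 23.9 to 29.0 with it, and the B cell marker Cd79b was at 43.5 to 49.8 and 71.3 to 91.5 TPM. Epcam fell from 104 ± 8.02 to 31.4 ± 0.673 TPM and Pecam1 rose from 15.6 ± 3.10 to 28.6 ± 4.36 TPM. Of the 12 ILC2 markers, 4 were called higher and 7 lower (median log2 fold change -1.03), beside 21.4% and 28.7% of all genes. The part of these markers was not tested.

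By 72 h the set no longer moved as a block. With IL-25, 16 of 43 genes were called higher and 4 lower, and 23 were not called. By the same rule 15.3% of all genes were higher and 33.2% lower. The median log2 fold change was 0.12 over the 43 genes and -0.20 over all genes. For 8 genes every library with IL-25 lay above every library without, as for 13.9% of all genes. The split moved with the scaling: median-of-ratios rescaling gave 27 higher and 2 lower, and quantile normalization 20 higher with 3 lower. The split of all genes moved likewise, from 1610 higher and 3503 lower to 2646 and 2155 by the median of ratios. The sum of Cd3e and Cd3g was 96.0 to 114 TPM without IL-25 and 30.8 to 42.2 with it, and Cd79b was at 37.6 to 47.1 and 132 to 157 TPM. Epcam fell from 77.9 ± 8.12 to 45.2 ± 4.44 TPM and Pecam1 rose from 13.9 ± 1.48 to 31.8 ± 8.42 TPM. Of the 12 ILC2 markers, 5 were called higher and 5 lower (median log2 fold change -0.21), beside the 15.3% and 33.2% of all genes. The part of these markers was not tested.

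Genes called higher at 72 h were Myc, 5 of 6 nucleolar scaffold proteins (Ncl, Npm1, Nolc1, Gnl3 and Ddx21), Nop58, Nhp2, 3 processome genes (Utp4, Wdr75 and Heatr1), Ltv1, and 4 large subunit genes (Bop1, Nop16, Ppan and Mrto4). Npm1 turned to a log2 fold change of -0.048 under quantile normalization, where Nhp2 also lost its call (adjusted p = 0.26). Mrto4 again rose most, from 54.5, 51.5, 46.8 and 62.1 TPM to 82.1, 79.9, 88.0 and 88.8 TPM, with no overlap (log2 fold change 0.65, SE 0.08, adjusted p = 2e-07). Ddx21, an RNA helicase of rRNA transcription and processing, was at 16.7, 19.2, 20.8 and 23.5 TPM without IL-25 and at 28.43, 26.98, 30.02 and 25.91 TPM with it, also with no overlap (log2 fold change 0.46, SE 0.10, adjusted p = 0.0003). Nop58 was at 191, 167, 161 and 175 TPM against 215, 222, 222 and 194 TPM, the groups nearly touching (log2 fold change 0.30, SE 0.07, adjusted p = 0.00089).

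Myc stood at 44.1, 51.0, 47.5 and 44.2 TPM at 72 h without IL-25 and at 61.9, 52.0, 60.9 and 50.5 TPM with it, so its groups overlapped slightly (log2 fold change 0.26, SE 0.08, adjusted p = 0.011). Without number 1 of the 72 h group with IL-25 that call was lost (adjusted p = 0.051). Heatr1 was at 7.40, 5.72, 10.8 and 10.6 TPM without IL-25 and at 12.9, 14.8, 12.1 and 13.6 TPM with it, all higher (log2 fold change 0.61, SE 0.19, adjusted p = 0.0094). Its call was lost without number 2 of the 72 h group without IL-25 (adjusted p = 0.054). Ltv1 was at 35.2, 27.4, 26.6 and 38.3 TPM without IL-25 and at 38.2, 46.7, 58.5 and 44.6 TPM with it; the groups overlapped by a single library (log2 fold change 0.55, SE 0.12, adjusted p = 0.0008). Of the 16 genes called higher, 9 kept the call whichever library was left out: Bop1, Ddx21, Ltv1, Mrto4, Ncl, Nop58, Npm1, Ppan and Utp4. Of these, 8 (all but Npm1) also kept it under both rescalings. In the group with IL-25, leaving out number 1 ended the calls of Nhp2, Nolc1 and Wdr75, number 3 those of Gnl3, Nhp2, Nolc1 and Wdr75, and number 4 that of Nop16. In the group without, number 1 ended those of Nhp2 and Nolc1, number 2 those of Nop16 and Wdr75, number 3 those of Gnl3 and Nhp2, and number 4 that of Wdr75 (adjusted p 0.056 to 0.17 in all).

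The 4 genes called lower with IL-25 at 72 h were Dkc1, Nop10, Polr1a and Nob1. Nop10, the smallest protein of the box H/ACA core, was at 196, 192, 193 and 196 TPM without IL-25 and at 131, 126, 123 and 133 TPM with it, with no overlap (log2 fold change -0.59, SE 0.06, adjusted p = 5.7e-09). Dkc1, the pseudouridine synthase of the same particle, was at 167, 95.8, 121 and 159 TPM against 103, 108, 82.1 and 100.33 TPM, so that the groups overlapped (log2 fold change -0.43, SE 0.12, adjusted p = 0.0057). Its call was lost after median-of-ratios rescaling (adjusted p = 0.21). Nob1, the endonuclease that makes the 3' end of 18S rRNA, fell from 61.2 ± 6.11 to 45.9 ± 3.96 TPM. Polr1a was at 10.7, 13.9, 10.4 and 13.2 TPM without IL-25 and at 8.41, 9.66, 12.0 and 6.86 TPM with it, and its groups overlapped (log2 fold change -0.37, SE 0.15, adjusted p = 0.047). That call was lost under both rescalings and without numbers 1, 2 or 4 of the group with IL-25 or 2 or 4 of the group without.

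**Figure D2:**
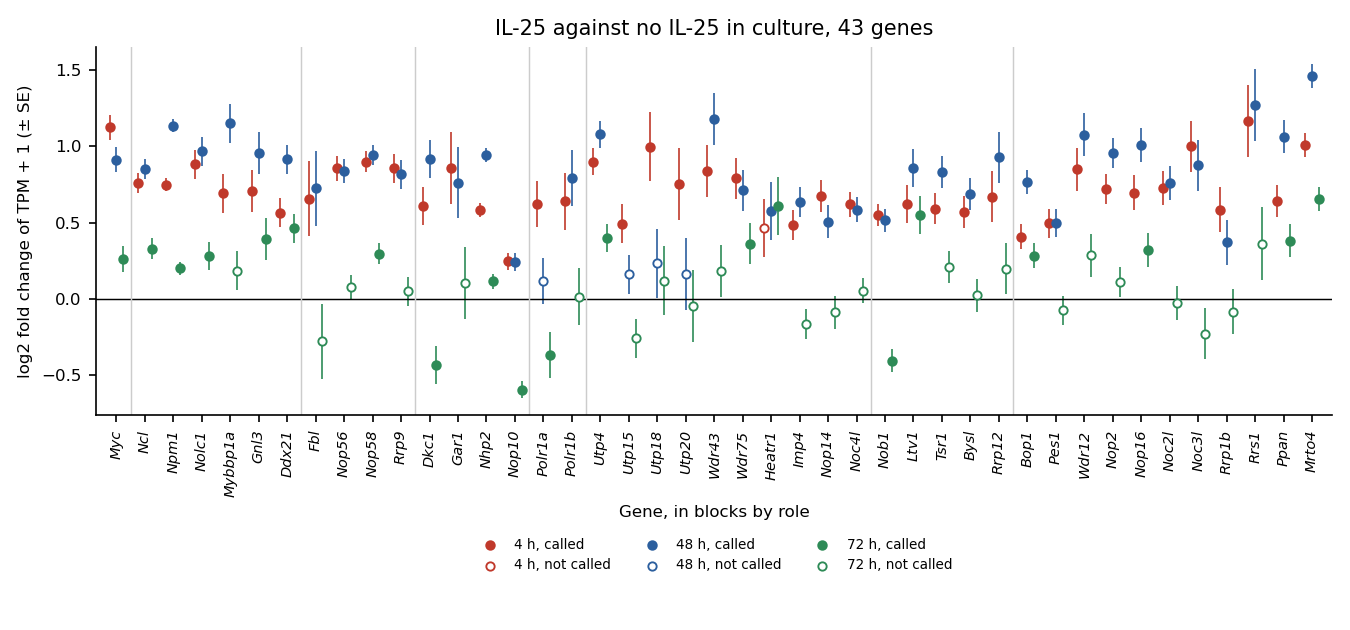
Log2 fold change of TPM + 1 with IL-25 against without (vertical axis, bars are SE from the fit) for each of the 43 genes at 4, 48 and 72 h, in blocks by role from Myc at the left to the large subunit at the right; filled points were called. At 4 and 48 h all points lie above 0, while at 72 h they run from -0.59 for Nop10 to 0.65 for Mrto4.

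The change of the IL-25 effect over time was then tested directly. Between 4 and 48 h the IL-25 effect was larger for 5 genes (Npm1, Nhp2, Bop1, Ppan and Mrto4) and smaller for 0 of 43, beside 17.2% and 10.7% of all genes. Neither share exceeded that of all genes. The Npm1 effect grew by 0.39 on the log2 scale (SE 0.06, adjusted p = 2.1e-05). For Myc the difference was -0.21 (SE 0.12, adjusted p = 0.19). Without number 4 of the 48 h group without IL-25, Myc was called with a smaller effect (-0.296, adjusted p = 0.045). The calls of Bop1 and Ppan were lost without number 3 of the 48 h group with IL-25 (adjusted p 0.052 and 0.066), and that of Ppan also without 7 other libraries (adjusted p 0.057 to 0.087). Between 48 and 72 h the effect became smaller for 31 of 43 genes and larger for 0, against 9.5% and 5.22% of all genes (by the median of ratios, 866 of all genes had a larger and 606 a smaller effect, in place of 551 and 1002). Among these 31, the largest drop was that of Dkc1 (-1.35, SE 0.18, adjusted p = 6.4e-06), followed by Noc3l (-1.10), Wdr43 (-0.997), Mybbp1a (-0.97), Npm1 (-0.93) and Nob1 (-0.92). Myc fell in the same test (-0.65, SE 0.12, adjusted p = 0.00036). Heatr1 had a difference of 0.03 (SE 0.27) and Ltv1 of -0.31 (SE 0.18), and neither was called. These 2 tests share the 48 h groups, so their values are given side by side only.

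Between 4 and 48 h in culture the whole set fell. Without IL-25, all 43 genes were called lower at 48 h than at 4 h, beside 44.5% of all genes lower and 19.9% higher, and the median log2 fold change was -1.40 against -0.28 over all genes. With IL-25 all 43 were again lower, beside 44.5% of all genes lower and 27.6% higher, with medians of -1.32 and -0.24. After median-of-ratios rescaling, all genes split into 3277 higher and 3060 lower without IL-25 (2094 and 4699 before) and 3811 and 3677 with it (2915 and 4699 before). The medians of the set were then -1.07 and -1.04, and 41 genes were called lower in each comparison (Gar1 and Utp18 lost without IL-25, adjusted p 0.059 and 0.18; Ltv1 and Npm1 with it, adjusted p 0.070 and 0.10). The call of Utp18 without IL-25 was also lost without number 1 of the 48 h group or number 3 or 4 of the 4 h group (adjusted p 0.061 to 0.078).

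Polr1b showed the steepest fall. It stood at 68.4, 71.0, 75.3 and 64.5 TPM at 4 h without IL-25 and at 6.34, 6.96, 9 and 6.72 TPM at 48 h, a mean 9.62-fold lower (log2 fold change -3.11, SE 0.19, adjusted p = 3e-13). With IL-25 it was at 112, 97.7, 116 and 112 TPM at 4 h and at 18.4, 13.2, 10.6 and 11.8 TPM at 48 h, 8.12-fold lower. Next without IL-25 came Mybbp1a (7.68-fold lower), Rrp12 (5.92-fold), a factor needed for export and maturation of both subunits, Ddx21 (5.62-fold) and Myc (5.49-fold). Myc fell 6.35-fold between 4 and 48 h with IL-25. The smallest falls were those of Nop10 (1.497-fold), Imp4 (1.69-fold) and Ltv1 (1.70-fold) without IL-25, and of Npm1 (1.32-fold), Ltv1 (1.43-fold) and Nop10 (1.499-fold) with it. The genes shared the direction of the fall and differed in its depth.

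From 48 to 72 h the path depended on IL-25. Without it, 0 of 43 genes were called higher and 0 lower by limma, beside 0.284% and 0.0948% of all genes; 15 of the 43, and 1226 of all genes, had an unadjusted p under 0.05. The median log2 fold change was -0.13 against 0.046 over all genes. With IL-25, 42 genes were called lower and 0 higher, beside 17.9% and 13.4% of all genes, and the median was -0.81 against -0.04 over all genes. The median of ratios moved the split of all genes from 30 higher and 10 lower to 15 and 32 without IL-25, and from 1412 and 1883 to 1871 and 1646 with it. Heatr1 was the gene not called (log2 fold change -0.24, SE 0.19, adjusted p = 0.36), and 2 calls rested on single libraries. That of Utp18 was lost without number 1 or 4 at 48 h or 1, 3 or 4 at 72 h, and that of Utp20 without number 1 or 2 at 72 h (adjusted p 0.055 to 0.11). Dkc1 fell most, from 327, 244, 281 and 254 TPM at 48 h to the values at 72 h given above (2.81-fold lower). Mrto4, Npm1 and Mybbp1a were 2.11-, 2.099- and 2.145-fold lower, with no overlap between libraries. Over the whole course with IL-25, means at 72 h lay between 2.26-fold (Imp4) and 16.4-fold (Polr1b) below those at 4 h, with a median of 4.67-fold.

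For Myc itself the order of culture means was 599.8 TPM (4 h, IL-25), 274 (4 h, none), 94.5 (48 h, IL-25), 56.3 (72 h, IL-25), 49.9 (48 h, none) and 46.7 TPM (72 h, none). The 3 highest groups overlapped no other. The last 3 overlapped one another in their libraries. For 3 genes, Npm1, Ltv1 and Mrto4, the mean at 48 h with IL-25 exceeded that at 4 h without. Beside this course, the summed TPM of 15 cell division genes (among them Mki67, Mcm2 to Mcm7 and Ccnb1) was 398 to 476 in the 4 h libraries and 1969 to 3161 in the 48 and 72 h libraries, with all 15 called higher at 48 h than at 4 h in both media. Epcam and Pecam1 summed to 203 to 261 TPM at 4 h and to 54.6 to 132 TPM later. Their part in the fall of the 43 genes was not tested.

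**Figure D3:**
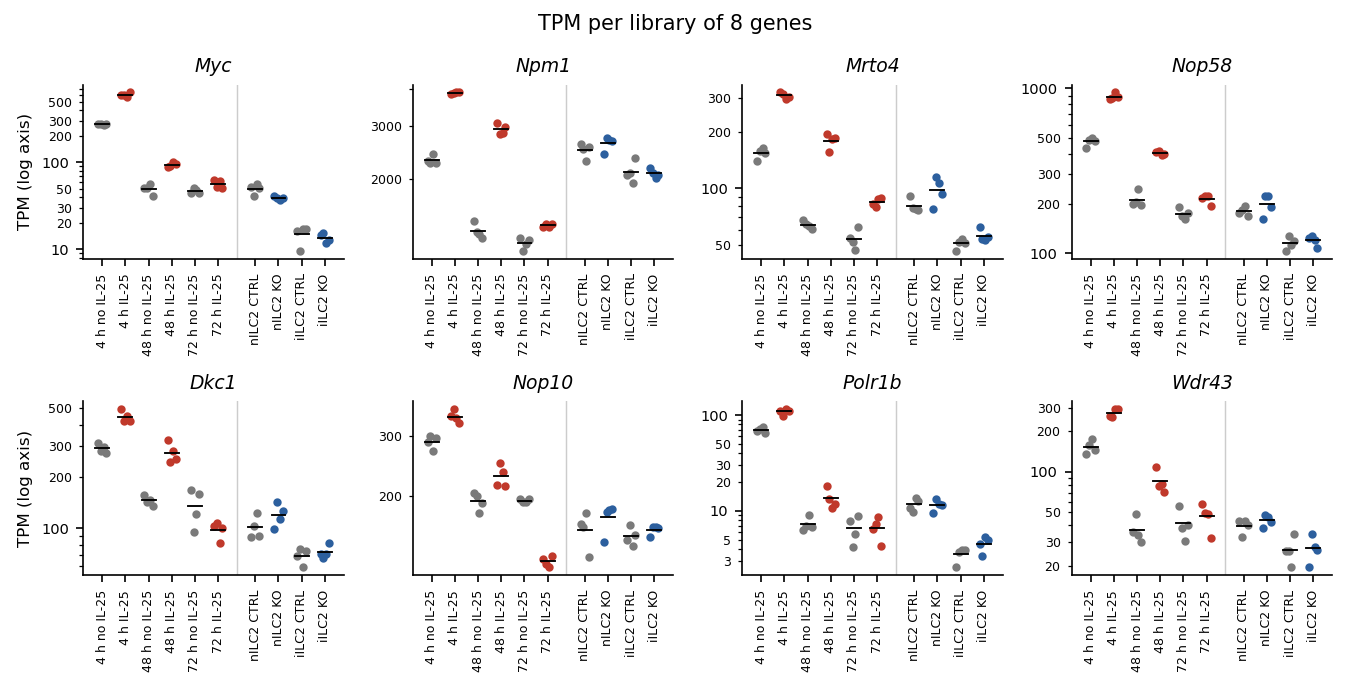
TPM (log axis) of 8 of the genes in each library, with the 6 culture groups left of the grey line and the nILC2 and iILC2 groups right of it; black bars are means of 4 libraries, red is with IL-25 and blue is KO. Myc runs from a mean of 599.8 TPM at 4 h with IL-25 to 46.7 TPM at 72 h without and 13.6 TPM in iILC2 KO; the sides come from tables normalized separately.

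In sorted cells, iILC2 had lower levels of many of the genes than nILC2. In CTRL, 24 of 43 were called lower and 0 higher, beside 23.6% and 21.9% of all genes. The median log2 fold change was -0.46 against -0.03 over all genes. In KO, 29 were called lower and 0 higher, beside 17.6% and 13.8% of all genes, with medians of -0.53 and -0.04. These comparisons share no library. The 19 genes called lower in both made up 19 of 24 and 19 of 29, and 5 were called in CTRL alone (Nob1, Rrp9, Tsr1, Utp15 and Utp4) and 10 in KO alone. The overlap was not counted over all genes, so it is a description with no test. Differences between the genotypes are tested further on. Same-numbered nILC2 and iILC2 libraries deviated together in KO (r 0.102 to 0.231) and, for most numbers, in CTRL (r 0.049 to 0.253). The number was therefore also fitted as a block within each genotype, an alternative chosen after seeing the data. With it, Bop1 and Heatr1 were no longer called in KO (adjusted p 0.057 and 0.054) while Fbl and Imp4 were (adjusted p 0.030 and 0.028). In CTRL, Tsr1 was no longer called (adjusted p = 0.063) and Ppan was (adjusted p = 0.030). With a term for Y-linked expression, Heatr1 was no longer called in KO (adjusted p = 0.052) while Imp4 and Utp4 were (adjusted p 0.036 and 0.041).

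Myc had the largest fall on the log2(TPM + 1) scale in both genotypes; as a ratio of mean TPM, Polr1b in CTRL (3.35-fold) and Utp20 in KO (2.94-fold) fell slightly more. In CTRL Myc was at 52.2, 40.5, 56.1 and 50.8 TPM in nILC2 and at 16.1, 9.57, 17.3 and 16.9 TPM in iILC2, 3.33-fold lower with no overlap (log2 fold change -1.70, SE 0.16, adjusted p = 8.7e-08). In KO it was at 41.0, 39.1, 36.6 and 38.8 TPM in nILC2 and at 14.6, 15.2, 11.7 and 12.9 TPM in iILC2, 2.86-fold lower (log2 fold change -1.45, SE 0.16, adjusted p = 1.3e-06). Of the 6 nucleolar scaffold genes, 5 were called lower in CTRL and all 6 in KO. Gnl3 (nucleostemin), a GTPase of dividing cells, was at 42.2, 34.4, 30.8 and 33.5 TPM in nILC2 CTRL and at 11.9, 19.6, 12.9 and 13.8 TPM in iILC2 CTRL (log2 fold change -1.23, SE 0.21, adjusted p = 9.3e-05). Mybbp1a fell 2.22-fold in CTRL and 2.76-fold in KO.

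Both RNA polymerase I subunits were called lower in both genotypes. Polr1b was at 10.8, 9.65, 13.7 and 12.8 TPM in nILC2 CTRL and at 2.56, 3.71, 3.89 and 3.85 TPM in iILC2 CTRL, 3.35-fold lower (log2 fold change -1.50, SE 0.17, adjusted p = 1.1e-06). Polr1a fell from 11.3 ± 1.24 to 7.53 ± 1.19 TPM, a call lost under quantile normalization (adjusted p = 0.16) and without number 1 or 2 of iILC2 or 1 or 4 of nILC2 CTRL. Of the snoRNP genes in CTRL, 2 of 4 box C/D and 1 of 4 box H/ACA genes were called lower, and in KO 1 and 2. Nop58 was at 175, 183, 193 and 169 TPM against 103, 128, 113 and 119 TPM in CTRL, with no overlap (log2 fold change -0.63, SE 0.10, adjusted p = 3.4e-05). Dkc1 was at 89.2, 103, 123 and 89.9 TPM against 69.0, 75.5, 59.3 and 73.9 TPM, also with no overlap (log2 fold change -0.53, SE 0.12, adjusted p = 0.0013). Nop10 had 159 ± 19.4 and 152 ± 9.30 TPM and was not called.

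Of the 10 processome genes, 4 were called lower in CTRL (Utp4, Utp15, Wdr43 and Nop14) and 6 in KO. Wdr43 was at 42.8, 32.7, 42.7 and 39.9 TPM in nILC2 CTRL and at 25.6, 25.6, 19.4 and 34.3 TPM in iILC2 CTRL, overlapping in a single library (log2 fold change -0.59, SE 0.16, adjusted p = 0.0065). Of the 5 late small subunit factors, 3 were called lower in CTRL and 2 in KO. Rrp12 was at 8.67, 6.82, 7.76 and 7.66 TPM against 4.83, 3.67, 4.67 and 4.05 TPM in CTRL, with no overlap (log2 fold change -0.72, SE 0.14, adjusted p = 0.00046). Of the 11 large subunit factors, 6 were lower in CTRL (Pes1, Nop2, Nop16, Noc3l, Rrp1b and Mrto4) and 9 in KO. Rrp1b was at 17.6, 14.2, 19.1 and 12.0 TPM against 5.61, 10.8, 4.91 and 8.19 TPM in CTRL (log2 fold change -1.03, SE 0.22, adjusted p = 0.00082). Mrto4 fell from 80.8 ± 6.67 to 50.9 ± 3.14 TPM in CTRL and from 98.2 ± 16.01 to 56.0 ± 4.11 TPM in KO.

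Calls kept whichever library was left out numbered 18 of 24 in CTRL and 22 of 29 in KO. Those lost in CTRL were Noc3l, Nolc1, Nop14, Polr1a, Tsr1 and Utp4, each without 3 or more single libraries, numbers 1 or 2 of iILC2 among them (adjusted p 0.050 to 0.13). Those lost in KO were Bop1, Bysl, Heatr1, Noc2l, Noc3l, Noc4l and Nop14, with iILC2 numbers 2 or 4 among the libraries (adjusted p 0.050 to 0.13). Beside these lower levels, all 15 cell division genes were called higher in iILC2 CTRL and 13 of 15 in iILC2 KO. Their summed TPM was 1600 to 2475 in nILC2 CTRL and 3941 to 4126 in iILC2 CTRL. Of the 12 ILC2 markers, 11 were lower in iILC2 CTRL and 9 in iILC2 KO. T cell markers (Cd3g and Cd5) summed to 50.5 to 83.2 TPM in nILC2 CTRL and 6.97 to 25.2 in iILC2 CTRL, and Cd79b was at 117 to 154 and 238 to 282 TPM. Epcam and Pecam1 summed to 105 to 112 TPM and 55.4 to 66.5 TPM in these groups. The part of these in the lower values was not tested.

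**Figure D4:**
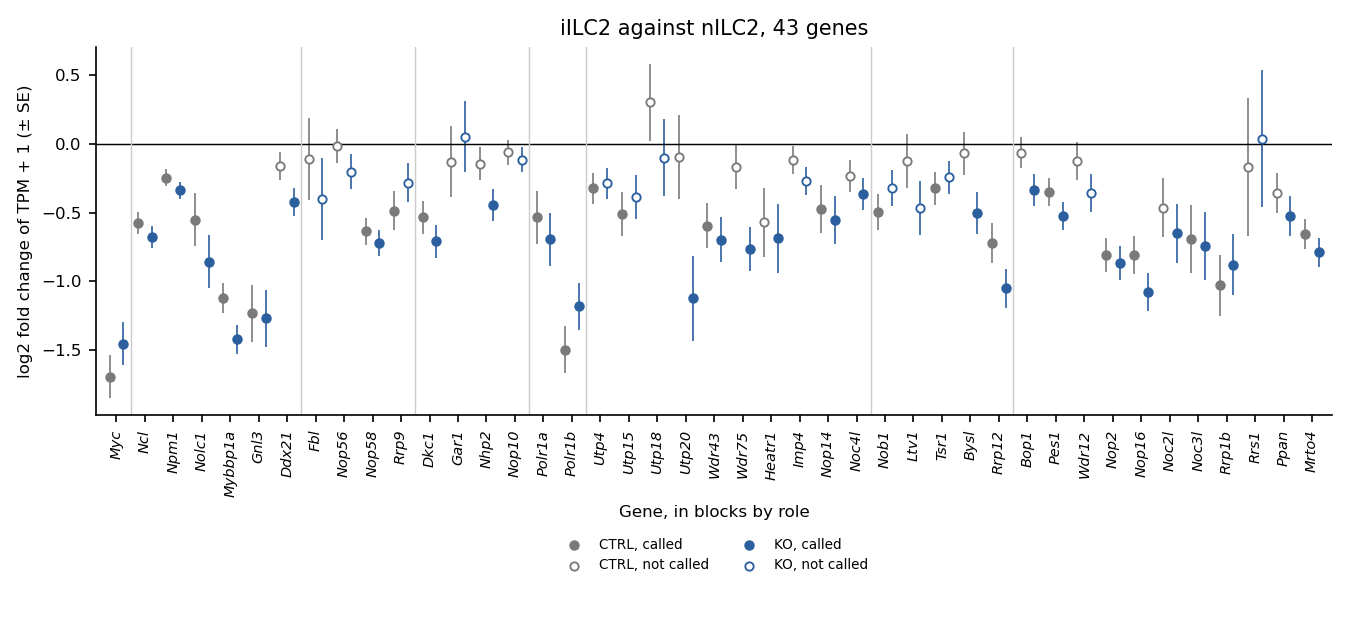
Log2 fold change of TPM + 1 in iILC2 against nILC2 (vertical axis, bars are SE from the fit) for each of the 43 genes in CTRL (grey) and KO (blue), in blocks by role; filled points were called. Most points lie below 0, down to -1.70 for Myc in CTRL, while Nop10, Gar1, Fbl and Rrs1 lie near 0 or have wide bars.

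No gene of the set passed the threshold in KO. In nILC2, 0 of 43 were called higher and 0 lower by limma, beside 0.943% and 0.596% of all genes, and 9 of the 43 had an unadjusted p under 0.05. The median log2 fold change was 0.12 against -0.003 over all genes, and 32 of 43 values were above 0. Myc was lower in value, at 38.9 ± 1.82 TPM in KO and 49.9 ± 6.66 TPM in CTRL, with a single CTRL library within the KO range (log2 fold change -0.34, SE 0.16, adjusted p = 0.24). Mybbp1a and Mrto4 had values on the other side of 0. Mybbp1a was at 62.0 ± 5.90 TPM in KO and 49.4 ± 4.16 TPM in CTRL (log2 fold change 0.32, SE 0.11, adjusted p = 0.11), and Mrto4 at 98.2 ± 16.01 and 80.8 ± 6.67 TPM (log2 fold change 0.27, SE 0.11, adjusted p = 0.18). Without number 1 of nILC2 KO, Mrto4, Mybbp1a and Nhp2 were called higher (adjusted p 0.020, 0.033 and 0.025). That library had the lowest mean level of the 43 genes among the 4 of its group.

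In iILC2, 0 of 43 genes were called higher and 0 lower in KO by limma, beside 0.0% and 0.0% of all genes; 1 of the 43 and 328 of all genes had an unadjusted p under 0.05. Myc was at 14.96 ± 3.63 TPM in CTRL and 13.6 ± 1.60 TPM in KO. The difference of the KO effect between iILC2 and nILC2 was called higher for 0 and lower for 0 of 43, with 0.0% and 0.0% of all genes called in those directions, and 2 of the 43 and 1059 of all genes had an unadjusted p under 0.05. For Myc the difference was 0.24 (SE 0.22, adjusted p = 0.73). The design therefore gives values for these effects but no call, and a p that misses the threshold does not show that the genotypes were alike.

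Other genes of the pathway were counted in the same comparisons. With IL-25 at 4 h, where 13.4% of all genes were higher and 26.9% lower, 29 of 38 other small subunit factors were called higher and 0 lower, 33 and 1 of 48 other large subunit factors, 7 and 1 of 11 snoRNP assembly genes, 9 and 1 of 14 RNA exosome genes and 8 and 1 of 13 other RNA polymerase I genes. Pno1, a late 40S assembly factor, rose from 104 ± 8.05 to 193 ± 13.1 TPM, and Ebna1bp2, a large subunit factor, from 148 ± 9.95 to 292 ± 10.9 TPM. At 72 h the same lists had 2 higher and 8 lower of 38, 8 and 2 of 48, 1 and 2 of 11, 3 and 4 of 14, and 1 and 4 of 13, beside 15.3% and 33.2% of all genes. Their median log2 fold changes at 72 h ran from -0.14 to -0.03, against 0.12 for the 43 genes and -0.20 for all genes, with no test between lists. From 4 to 48 h without IL-25, 34 of 38 and 46 of 48 of the subunit factors were called lower, beside 44.5% of all genes. In iILC2 against nILC2 CTRL, 4 were higher and 8 lower of the 38, and 1 higher and 14 lower of the 48, beside 21.9% and 23.6% of all genes. The lower shares in CTRL thus lie near that of all genes. In KO, 2 were higher and 16 lower of the 38, and 0 higher and 16 lower of the 48. Of all genes, 13.8% were higher and 17.6% lower there, so the lower shares in KO exceed that of all genes. The largest falls of these 2 lists in CTRL were those of Nat10, the rRNA acetyltransferase (19.5 ± 4.41 to 7.21 ± 0.762 TPM), and Mdn1, an ATPase of the pre-60S particle (6.39 ± 1.97 to 2.04 ± 0.358 TPM).

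Partners and antagonists of Myc did not move in a single direction. Of 11 Myc network genes, 4 were called higher and 2 lower with IL-25 at 4 h, 0 and 4 at 48 h, and 2 and 5 at 72 h. Over all genes the shares were 13.4% and 26.9%, 21.4% and 28.7%, and 15.3% and 33.2%. Mxd4, a repressor that competes with Myc for Max, fell with IL-25 from 11.2 ± 0.980 to 2.76 ± 0.577 TPM at 4 h and from 14.9 ± 3.16 to 3.13 ± 0.129 TPM at 48 h. It was also lower in iILC2 than in nILC2, at 7.70 ± 2.43 against 30.9 ± 4.34 TPM in CTRL, alongside lower Myc. Mycn, a paralogue of Myc, rose with IL-25 at 4 h (6.02 ± 1.65 to 17.8 ± 3.20 TPM) and fell at 48 h (16.1 ± 2.97 to 5.45 ± 0.404 TPM). Of 21 RNA polymerase III genes, 4 were higher and 3 lower at 4 h, and Maf1, the repressor of that polymerase, fell from 237 ± 24.1 to 120 ± 7.45 TPM. Of 26 other known Myc targets, 25 were called higher and 0 lower at 4 h, 23 and 0 at 48 h, and 16 and 2 at 72 h. In iILC2 against nILC2 CTRL, 6 were higher and 7 lower (median log2 fold change -0.08), near the 21.9% and 23.6% of all genes. In KO, 2 were higher and 11 lower (median -0.34), beside 13.8% and 17.6% of all genes. Srm, the spermidine synthase, rose from 191 ± 61.4 to 382 ± 95.6 TPM at 4 h and from 38.2 ± 3.64 to 150 ± 14.2 TPM at 48 h.

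The 43 genes lie dispersed in the genome. In RefSeq GRCm38.p6, Myc is at chr15:61985341-61990361, Mrto4 at chr4:139347440-139352576, Polr1b at chr2:129100970-129128060 and Nop10 at chr2:112261926-112262898. Chromosomes 1 and 11 hold 6 of the genes each, and Dkc1 is the 1 gene on chromosome X.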

How the data were processed

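The deposited tables hold TPM per gene as the authors made them. The submitters' processing notes name cutadapt 2.10, STAR 2.7.5c and RSEM 1.3.3, with mm10, among other tools that have no stated role. The filter behind the listed genes is not given in the sources used here. The listed TPM summed to 873200 to 898025 per culture library and 849733 to 886670 in the other table, with 9530 to 9941 genes at 1 TPM or more. TPM keeps no depth, so no counting error is given.

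The tables were analysed separately. For each, log2(TPM + 1) of the genes that reached 1 TPM in 4 or more libraries was fitted by limma 3.58.1 (R 4.3.3), using lmFit and trended eBayes, by group means without a replicate block. Benjamini-Hochberg adjustment ran over the table's whole gene list, and a gene was called below 0.05. This scale understates changes of low genes. The 14 comparisons are the 3 IL-25 effects, the 4 steps of culture time, KO in nILC2 and in iILC2, iILC2 against nILC2 in each genotype, and 3 differences of effects. The scaling moves the median of all genes by over 0.1 for IL-25 at 4 h and 72 h and for the steps from 4 to 48 h. It does so too for the IL-25 effect at 72 h against 48 h. Medians are therefore set beside those of all genes.

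The 43 genes and the lists of related genes and markers were chosen with earlier results of these data known. Values per library are given for Myc and, per role, for the called gene with the largest change with IL-25 at 72 h or in iILC2 against nILC2 CTRL; from other lists at most 2 called genes per comparison. Promoter windows came from RefSeq (GRCm38.p6).

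Alternatives were a pseudocount of 0.1 TPM, no filter, quantile normalization, median-of-ratios rescaling, the compared groups alone, a replicate block, a term for Y-linked expression, and leaving out each library; a replicate block within genotype was added after seeing the data. Between same-numbered libraries, r was over 0.1 for all 4 numbers only between nILC2 KO and iILC2 KO (r 0.102 to 0.231). It was 0.049 to 0.253 between nILC2 CTRL and iILC2 CTRL. In the table of nILC2 and iILC2, r was over 0.1 in 18 of 24 pairs, against 3 of 60 in culture. The labels state no pairing, and the main fit uses none. Simulated data tested the fit. Among 100 genes given a change of 0.5 on the log2 scale, 55 were recovered in IL-25 at 4 h (10548 genes) and 49 in KO in nILC2 (10069 genes), and among 100 given a change of 1, 88 and 85.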

Additional observations from a re-analysis of the deposited data

Results flagged for a closer look

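In the groups of 4 libraries checked for 14 genes and for the mean level of the whole set, 7 had a library far from the other 3; chance alone gives about 1 in 20 groups, and 150 groups were checked. In iILC2 CTRL, number 2 had Myc at 9.57 TPM against 16.1 to 17.3 in the others, and number 1 had Polr1b at 2.56 TPM against 3.71 to 3.89. Ltv1 in iILC2 CTRL number 2 was at 31.28 TPM against 25.5 to 26.3. Nop10 was low in number 1 of both KO groups, at 146.8 TPM in nILC2 KO (others 180 to 184) and 151.01 TPM in iILC2 KO (others 161 to 162). Nop58 at 48 h without IL-25 was 244.3 TPM in number 3 (others 197 to 204), and Mrto4 was 90.71 TPM in nILC2 CTRL number 1 (others 76.5 to 78.5).

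The IL-25 effect differed between times by the fit's own test. It was larger at 48 h than at 4 h for 5 of the 43 genes, a share below the 17.2% of all genes. Mrto4 was among the 5, by 0.45 on the log2 scale. The IL-25 effect was smaller at 72 h than at 48 h for 31 of the 43, beside 9.5% of all genes. Differences were -0.65 for Myc, -0.45 for Ddx21, -0.65 for Nop58, -0.83 for Nop10 and -0.81 for Mrto4. They were -1.35 for Dkc1, -0.78 for Polr1b, -1.0 for Wdr43 and -0.73 for Rrp12. The Ddx21, Polr1b and Rrp12 differences were not called when certain single libraries were left out (adjusted p 0.052 to 0.12).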

How the results depend on the processing

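Of 456 counts of called genes recomputed under alternatives, 443 stayed within 1.5 times. Of 9804 values for single genes, 9522 kept their side of the threshold and, where called, their direction. A change of direction between values that were both not called was not counted. With IL-25 at 72 h, median-of-ratios rescaling gave 27 higher and 2 lower in place of 16 and 4, and quantile normalization turned Npm1 to -0.048. From 48 to 72 h without IL-25, 0 called lower became 3 by the median of ratios, 5 by quantile normalization and 1 with the replicate block, and 0 to 1 when a library was left out (1 without number 1 at 72 h). For the IL-25 effect at 48 h against 4 h, quantile normalization gave 8 larger, median of ratios 2 smaller, and leaving out a library 0 to 2 smaller (2 without number 4 of 48 h without IL-25). For KO in nILC2, leaving out a library gave 0 to 3 higher (3 without nILC2 KO number 1). The cause was not tested. The replicate block, where labels state no pairing, gave 25 lower in iILC2 CTRL in place of 24, and 32 in iILC2 KO in place of 29. Apart from the 1 called lower from 48 to 72 h without IL-25, it changed no count by over 1.5 times. TPM carry no read total, so which of the low genes (Utp18, Noc3l, Utp20) are limited by depth cannot be read from these values.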
